A study of Rattus norvegicus with 16 samples.

Results

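The spliceosome component genes were the 43 genes, of 14324 with 1 annotated symbol on the array, whose symbol starts with Snrp, Lsm, Sf3a, Sf3b, Prpf or Cwc. They were read from 47 probe sets, and a gene with several probe sets was represented by the one with the highest mean over the 16 arrays. The 20 small proteins comprised 8 Snrp and 12 Lsm genes. The 23 large factors comprised 3 Sf3a, 5 Sf3b, 11 Prpf and 4 Cwc genes, and the classes follow the symbols: Sf3b5, a small subunit, stands with the large factors, and Cwc22-ps1 is annotated as a pseudogene. Protein length was not used, so the small class may also hold genes, such as Lsm11 and Lsm14a, whose proteins need not be small. RNA came from rat retina of 2 strains, Fischer 344 (F344) and Sprague Dawley (SD), taken on post-natal day 5 or 6. Litters had been kept with their mothers, from within 12 h of birth, either in oxygen that alternated every 24 h between 80% and 21% (cyclic hyperoxia, the exposure used to model early oxygen-induced retinopathy) or in room air. Each of the 8 groups of strain, exposure and day had 2 arrays, each of pooled RNA. How many animals entered a pool, and which oxygen level preceded each day's sampling, is not given in the sources used here, and the P values below cover nothing beyond the variation from pool to pool.

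The spliceosome removes introns from pre-mRNA. Its core consists of small nuclear ribonucleoproteins (snRNPs), in which a ring of small Sm proteins (encoded by Snrp genes such as Snrpd1, Snrpd2 and Snrpg) clasps the U1, U2, U4 or U5 RNA, and a ring of LSm proteins holds the U6 RNA. Large factors assemble on these particles: SF3a and SF3b bind U2 at the branch site, most of the PRPF proteins build the U4/U6.U5 tri-snRNP or act in catalysis, and CWC proteins join the catalytic complex. Every cell needs the machinery, yet inherited mutations in PRPF3, PRPF4, PRPF6, PRPF8 and PRPF31 cause retinitis pigmentosa, a degeneration of the photoreceptors.

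The start sites of the members that passed a test of oxygen on day 6, below, are shown for their sequence context. RefSeq promoter windows of the GRCr8 assembly, from 250 bases before to 50 after the start, were matched for 38 of the 43 members (18 small, 20 large); Cwc15 is among those not matched. The 150 bases before the start are printed 5′ to 3′ on the gene's strand, with capitals for any match, on either strand, to CCGGAAG (ETS core), CATGCGC (NRF1 core), CCAAT (the box of that name), ATGGCG (YY1 core), TCGCGAG (with no named factor here) or ACGTG (hypoxia response core). Snrpg lies at chr4:120369561-120369710 (+), Lsm8 at chr4:48271978-48272127 (+), Lsm3 at chr4:125578035-125578184 (+), Prpf3 at chr2:186092428-186092577 (-) and Sf3a1 at chr14:83254821-83254970 (+).
Snrpg: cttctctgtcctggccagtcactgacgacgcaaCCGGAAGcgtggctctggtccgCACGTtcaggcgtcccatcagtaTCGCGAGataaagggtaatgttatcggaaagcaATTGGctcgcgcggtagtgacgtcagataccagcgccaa
Lsm8: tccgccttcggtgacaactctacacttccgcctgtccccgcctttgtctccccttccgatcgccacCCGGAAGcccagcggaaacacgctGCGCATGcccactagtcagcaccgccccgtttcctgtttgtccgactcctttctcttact
Lsm3: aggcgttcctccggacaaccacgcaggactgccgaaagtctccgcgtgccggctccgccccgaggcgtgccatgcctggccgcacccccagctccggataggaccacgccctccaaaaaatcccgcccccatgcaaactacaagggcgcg
Prpf3: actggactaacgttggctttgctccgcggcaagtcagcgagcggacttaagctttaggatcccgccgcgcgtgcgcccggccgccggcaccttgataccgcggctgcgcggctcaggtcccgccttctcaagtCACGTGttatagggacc
Sf3a1: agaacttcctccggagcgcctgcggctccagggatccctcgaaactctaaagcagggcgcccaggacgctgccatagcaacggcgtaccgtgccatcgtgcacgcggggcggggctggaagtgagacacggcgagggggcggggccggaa

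Snrpg and Lsm8 both hold the ETS core in these stretches, the capitals of Prpf3 are 1 pair of overlapping ACGTG matches, and Lsm3 and Sf3a1 hold none of the motifs there. Over the whole windows, the ETS core was in 33.3% of the small protein promoters and 35.0% of the large factor promoters, against 9.22% of all 27457 promoters. The NRF1 core was in 15.8% of the member promoters against 3.94% of all, and TCGCGAG in 7.89% against 1.85%. The hypoxia response core was in 27.8% of the small protein and 45.0% of the large factor promoters, against 19.7% of all, and ATGGCG in 11.1% and 40.0%, against 10.6%. CCAAT was about as frequent in the members (39.5%) as in all promoters (37.7%). These shares describe letters in a window and were not tested.

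Array medians lay between 5.452 and 5.524 on the log2 scale, and no member had a mean under the lowest of them. The 5 measured of 8 retina markers lay between 9.27 and 11.25 on every array. Other cell types were seen unevenly. Below the lowest array median on all arrays were Crygs and Mip (lens), Rpe65 and Best1 (pigment epithelium) and Myh3 and Myog (muscle). So were all 3 measured erythroid genes, the endothelial genes Cdh5 and Tie1 and the microglia gene Tyrobp. Others of these lists were not. Ttr, made in pigment epithelium, reached 9.75, Tyrp1 of the same list 7.44 and the lens gene Cryba1 7.7. The muscle genes Acta1 and Ckm reached 6.64 and 5.61, and the microglia genes Csf1r, Cx3cr1 and Aif1 6.23, 5.98 and 5.48. Replicate arrays correlated across genes at 0.987 to 0.996. The pair of F344 hyperoxia day 6 stood apart, with 14 members differing by over 0.5 log2 between its arrays, next to 12 in F344 room air on day 5 and 0 to 5 in the other groups. Its replicate 2 is the array named wherever it decides a value. That array had the highest median (5.524) and the narrowest interquartile range of the values (2.813, the others 2.977 to 3.19). RefSeq names pseudogenes or other copies of 20 members (13 small, 7 large; 9 for Snrpg and 3 for Cwc15), which the probes could also bind, so these members' values are uncertain in that respect.

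In all 4 pairs of strain and day, the small proteins were shifted towards higher values in hyperoxia than the large factors. The median log2 difference, hyperoxia minus room air, of the 20 small proteins was 0.13 in F344 and 0.23 in SD on day 5, and 0.20 and 0.23 on day 6. That of the 23 large factors was -0.04, 0.06, 0.02 and -0.05 in the same order, beside medians of all genes between -0.01 and 0.01. Small proteins above 0 numbered 14 and 15 of 20 on day 5 (F344, SD) and 16 and 15 on day 6, and large factors 10, 15, 12 and 10 of 23. The shares of all genes above 0 were 51.5%, 51.3%, 49.1% and 48.7%, and those below 0 were 48.5%, 48.7%, 50.9% and 51.3%. The small protein difference exceeded the large factor difference by 0.17 on day 5 in each strain, by 0.18 on day 6 in F344 and by 0.28 on day 6 in SD. Because the members were chosen with earlier results known, these class values have no test. The small minus large value can also be taken on each array, which is another measure than these gaps. Its group means in F344 were -0.03 in hyperoxia against -0.14 in room air on day 5, and 0.08 against -0.11 on day 6. In SD they were 0.08 against -0.02 on day 5 and 0.10 against -0.03 on day 6. This per-array value varied within groups with a pooled SD of 0.16, which is not a spread of the gaps above. Within the F344 groups the SD was 0.08 to 0.39, and within the Sprague Dawley groups 0.01 to 0.06. Without replicate 2 of F344 hyperoxia on day 6 the F344 gap of that day became -0.12, and without replicate 1 it became 0.47. On day 5 in F344 it was 0 without hyperoxia replicate 2. In SD it was 0.07 on day 5 without hyperoxia replicate 1 and 0.17 on day 6 without room air replicate 1, and with class means in place of medians it was 0.09 and 0.14.

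Array by array, the shift was seen in SD and not resolved in F344. Each gene was centred on its mean over the 16 arrays, and the class medians were taken on each array. The small protein median was 0.21 and 0.15 in SD hyperoxia on day 5 against 0.02 and -0.05 in room air, and 0.12 and 0.07 against 0.01 and -0.04 on day 6. The SD groups did not overlap on either day, and the small minus large value did not overlap either (0.08 and 0.07 against -0.01 and -0.03 on day 5, 0.13 and 0.08 against 0.01 and -0.08 on day 6). In F344 on day 6 the small protein median was -0.12 and 0.05 in hyperoxia and -0.21 and -0.19 in room air. These do not overlap, but the small minus large value does (-0.19 and 0.36 against -0.06 and -0.17), since the large factors were at 0.07 on hyperoxia replicate 1 and at -0.31 on replicate 2. On day 5 the F344 small protein medians overlapped (-0.07 and 0.15 in hyperoxia, 0.09 and -0.17 in room air). The median of 7 measured dividing cell markers, centred in the same way, was 0.42 and 0.75 in SD hyperoxia on day 5 against 0.48 and -0.28 in room air, and -0.67 and -0.61 against -0.41 and -0.87 on day 6, so those groups overlapped. Gene by gene, all 7 were higher in SD hyperoxia on day 5, by a median of 0.42, beside 51.3% of all genes higher. Of the 7, 0 were called and 4 had an unadjusted p under 0.05 (limma, beside 4.66% of all genes). The arrays of 4 did not overlap (24.6% of all genes). On day 6 in SD, 2 of the 7 were higher and 5 lower, with a median of -0.03. Of them only Pcna was called, with a rise of 0.68 (adjusted p 0.0372, limma).

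Other marker lists also stood apart between the SD groups. The median of the endothelial genes Cdh5 and Tie1, the 2 measured of 4, was -0.31 and -0.25 in SD hyperoxia against 0.09 and 0.23 in room air on day 5, and -0.15 and -0.20 against 0.20 and 0.15 on day 6. It was lower in F344 hyperoxia as well (-0.20 and -0.22 against -0.04 and 0.23, then -0.09 and -0.07 against 0.25 and 0.39), and over both strains on day 6 Tie1 fell by 0.46 (a difference of -0.46, adjusted p 0.0125, limma). The retina marker median was 0.37 and 0.21 in SD hyperoxia on day 6 against 0.04 and 0.05, and that of the pigment epithelium markers -0.16 and -0.17 on day 5 against 0.03 and 0.10. Gene by gene, 3 of the 5 retina markers were higher and 2 lower in SD hyperoxia on day 6. In each direction 1 had an unadjusted p under 0.05 (limma), beside 10.3% of all genes higher and 8.54% lower. The arrays of 2 did not overlap in each direction, beside 25.3% and 24.7% of all genes. The higher one was called (adjusted p 0.021), beside 2.23% of all genes, and over both strains 1 retina marker was called higher (0.034, limma), beside 4.01%. The part of these lists and of the dividing cell markers in the class values was not tested.

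**Figure D1:**
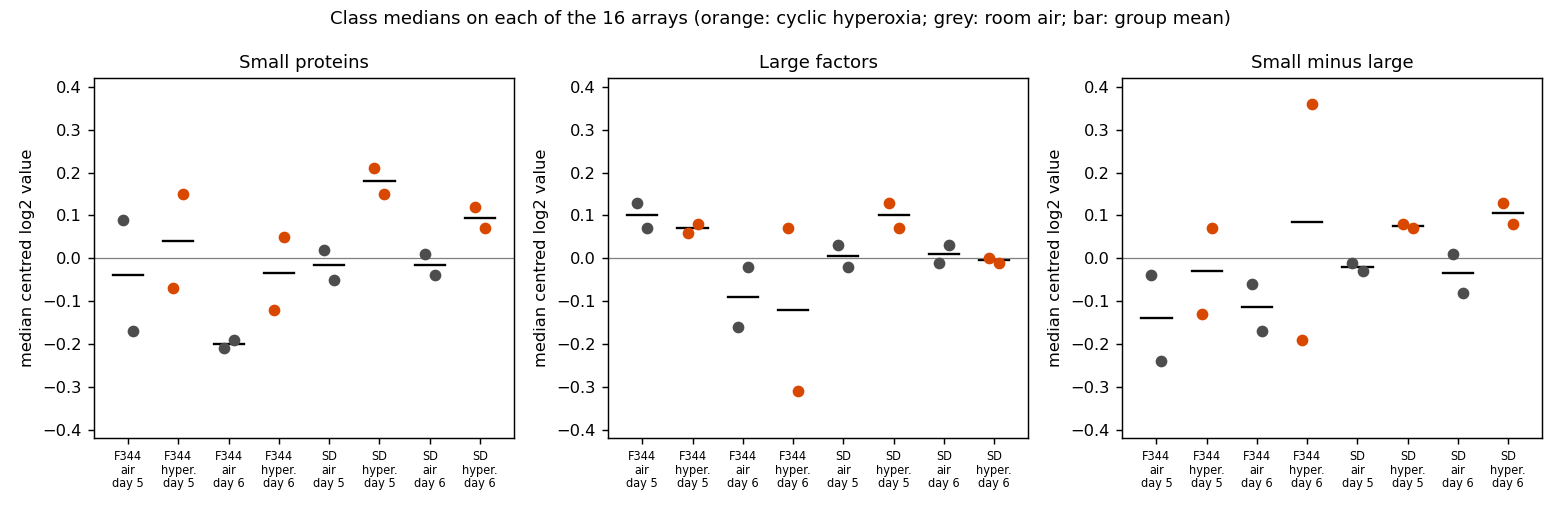
Median centred log2 value of the small proteins, the large factors and their difference on each array, by strain, exposure and day, with 2 arrays a group and a bar at the group mean. The SD hyperoxia arrays lie above the SD room air arrays for the small proteins and the difference on both days, and the F344 hyperoxia arrays of day 6 are far apart in the large factors (0.07 and -0.31).

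Counted by gene, 8 of the 20 small proteins (40.0%) had a higher mean in hyperoxia in all 4 pairs: Snrpg, Snrpd2, Snrpn, Lsm1, Lsm3, Lsm4, Lsm6 and Lsm8. Of the 23 large factors, 5 (21.7%) did: Cwc15, Sf3b5, Prpf31, Prpf19 and Prpf3. The share among all genes was 12.7%. These counts go by sign alone and hold differences near 0: Lsm6 had 0.00 in SD on day 6, and Prpf3 and Prpf31 had 0.01 each in F344 on day 5. No small protein was lower in all 4 pairs. Of the large factors 4 (17.4%) were, near the 14.3% of all genes: Prpf8, Prpf4b, Sf3b1 and Cwc22-ps1. Another of the 3 probe sets of Cwc22-ps1 gave 0.03 in SD on day 6, so its place among these depends on the probe set. The 4 effects rest on different arrays, and these counts were not tested.

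**Figure D2:**
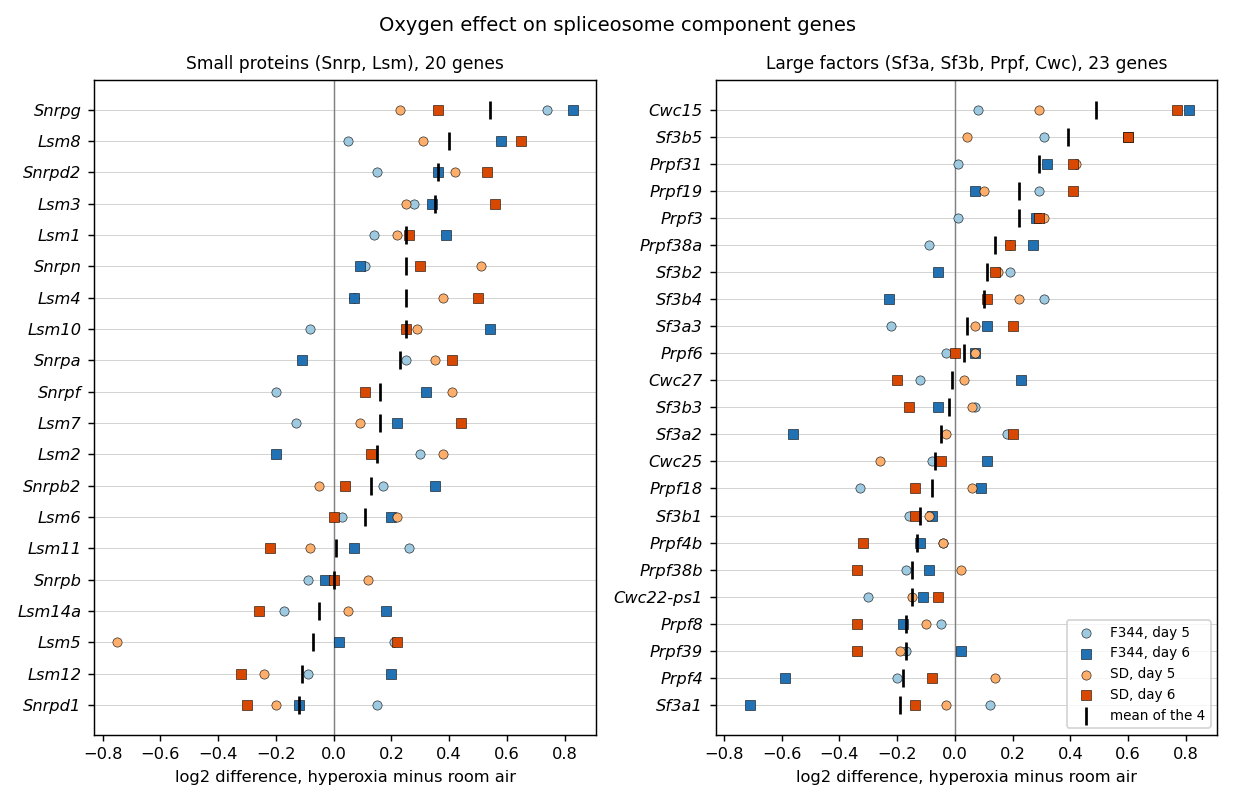
Log2 difference, hyperoxia minus room air, of each member in F344 and SD on days 5 and 6 (symbols) with the mean of the 4 (bar), for the 20 small proteins on the left and the 23 large factors on the right. Snrpg, Lsm8 and Cwc15 lie to the right of 0 in all 4 pairs, and Sf3a1 lies far to the left in F344 on day 6 (-0.71).

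On day 6, few members passed the test. With limma on all 16 arrays and Benjamini-Hochberg adjustment over the 14324 genes, 2 members rose and 1 fell at an adjusted p under 0.05 in F344, where 0.342% of all genes rose and 0.845% fell. In SD, 2 rose and 0 fell, beside 2.23% and 0.565% of all genes. At an unadjusted p under 0.05, 7 rose and 3 fell in F344 (all genes 6.83% and 10.8%), and 9 rose and 2 fell in SD (10.3% and 8.54%). The mean of both strains' effects, a contrast added after the data were seen, had 5 members up and 1 down, beside 4.01% and 2.73% of all genes (12 and 3 at an unadjusted p under 0.05, beside 10.8% and 13.1%). Those up were Cwc15, Lsm8, Snrpg, Lsm3 and Prpf3, and Sf3a1 was down. The counts moved with single arrays. The F344 count was 8 without hyperoxia replicate 1 and 0 without hyperoxia replicate 2 or either room air array, and 1 without any 1 of the SD hyperoxia arrays of either day. The SD count was 5 without either F344 hyperoxia array of day 6, 0 without either SD hyperoxia array or room air replicate 1 of that day, and 1 without room air replicate 2, either F344 room air array of day 6 or either SD hyperoxia array of day 5. Over both strains the count was 13 without F344 hyperoxia replicate 1 of day 6, 2 without its replicate 2 or either F344 room air array of day 6, 3 without SD hyperoxia replicate 2 or room air replicate 1 of day 6 or either SD hyperoxia array of day 5, and 1 without SD hyperoxia replicate 1 of day 6.

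Among the small proteins, Snrpg (SmG, a subunit of the Sm ring) read 9.0 and 9.65 in F344 hyperoxia and 8.52 and 8.48 in F344 room air on day 6. In SD it read 8.52 and 8.44 against 8.05 and 8.18. Hyperoxia was above room air on every array within a strain, and the F344 hyperoxia arrays were the highest of day 6 and 0.65 apart. The difference was 0.83 ± 0.19 (SE; 1.77-fold) in F344, with an adjusted p of 0.0467 by limma, 0.36 in SD, which did not pass, and 0.59 ± 0.13 over both strains (adjusted p 0.0175, limma). The F344 call was also lost with quantile normalization (adjusted p 0.0576), array weights (0.206) or only the arrays of the contrast (0.28). It was lost without hyperoxia replicate 2 or either room air array of its own groups (differences of 0.50 to 0.84, adjusted p 0.221 to 0.26, limma), and without any 1 of 6 SD arrays (hyperoxia of both days and room air of day 5), which leave the difference as it is and change only the shared spread (adjusted p 0.0532 to 0.0711). The call over both strains was lost without F344 hyperoxia replicate 2, either F344 room air array, SD hyperoxia replicate 1 or SD room air replicate 1 (adjusted p 0.0515 to 0.101).

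Lsm8, the subunit that marks the nuclear LSm ring on U6, gave 8.32 and 8.35 in F344 hyperoxia and 7.69 and 7.82 in room air on day 6. In SD it gave 8.44 and 8.32 against 7.92 and 7.55. All 4 hyperoxia arrays were above all 4 room air arrays. The difference was 0.65 ± 0.16 (SE; 1.56-fold) in SD, adjusted p 0.0391, 0.58 ± 0.16 in F344, adjusted p 0.072, and 0.61 ± 0.11 over both strains, adjusted p 0.00851 (all limma). The call over both strains was lost without SD hyperoxia replicate 1 (adjusted p 0.0624), and the SD call without any 1 of the 4 SD arrays of day 6 (adjusted p 0.0881 to 0.367) or of the SD hyperoxia day 5 and F344 room air day 6 arrays (0.0523 to 0.0595). The SD call was lost too with arrays recentred (0.0561), the replicate number as a block (0.0518) or only the arrays of the contrast (0.0635).

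Lsm3, a subunit shared by the U6 ring and the cytoplasmic ring that acts in mRNA decay, read 9.40 and 9.41 in SD hyperoxia on day 6 against 8.69 and 9.0 in room air. In F344 it read 9.20 and 9.87 against 9.32 and 9.08. The strains differ in overlap: the SD groups were apart, while F344 hyperoxia replicate 1 lay between the room air arrays. Over both strains the difference was 0.45 ± 0.13 (SE), adjusted p 0.0473 by limma. That call was lost on leaving out any 1 of 12 arrays, with a difference of 0.28 and an adjusted p of 0.155 without F344 hyperoxia replicate 2. The others were both F344 room air arrays, both SD hyperoxia arrays and SD room air replicate 1 of day 6 (0.0836 to 0.175) and 6 arrays of day 5 (F344 hyperoxia, SD hyperoxia and SD room air, 0.0572 to 0.0609). It was lost as well with arrays recentred (0.0529), quantile normalization (0.0565), the replicate number as a block (0.057), array weights (0.0596) or only the arrays of the contrast (0.112).

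The other Sm and LSm genes gave no adjusted p under 0.05 for oxygen. On day 6 in SD, Snrpd2 (SmD2) read 8.81 and 8.84 against 8.01 and 8.57, Lsm4 8.65 and 8.41 against 7.96 and 8.10, and Snrpa, which binds a loop of U1 RNA, 7.46 and 7.56 against 7.05 and 7.13. Hyperoxia was above room air on both arrays for each, and the differences were 0.53, 0.50 (adjusted p 0.0787) and 0.41 (0.0728, limma). In F344 the same 3 genes gave 0.36, 0.07 and -0.11. Lsm10, part of the ring of the U7 particle that processes histone mRNA, gave 0.54 in F344, from 6.91 and 7.61 against 6.67 and 6.77, and 0.25 in SD. Lsm1, the subunit that marks the cytoplasmic ring, gave 0.39 and 0.26. Snrpd1 (SmD1) gave -0.12 in F344 and -0.30 in SD (SE 0.20 each), and Snrpb (SmB) -0.03 and 0.00 (SE 0.13 each). Whether members of the same Sm ring differed in their oxygen effect was not tested. Lsm5 varied widely between replicates, reading 6.91 and 5.74 in F344 hyperoxia. Its second probe set, with a mean of 4.95, lay under the array medians.

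Among the large factors, Cwc15, a protein of the catalytic spliceosome, had the largest difference over both strains on day 6. It read 8.41 and 8.58 in F344 hyperoxia against 7.78 and 7.59 in room air, and 8.48 and 8.45 in SD hyperoxia against 7.58 and 7.81. The 4 hyperoxia arrays were all above the 4 room air arrays. The difference was 0.81 ± 0.14 (SE; 1.75-fold) in F344, adjusted p 0.023, and 0.77 ± 0.14 (1.70-fold) in SD, adjusted p 0.0146. Over both strains it was 0.79 ± 0.10, adjusted p 0.00216 (all limma), and this call was kept whichever of the 16 arrays was left out. The F344 call was lost without F344 hyperoxia replicate 2 (adjusted p 0.111) or room air replicate 1 (0.211) or 2 (0.206), and the SD call without SD hyperoxia replicate 1 (0.211) or 2 (0.0735) or room air replicate 1 (0.124). With only the arrays of the contrast the F344 value had an adjusted p of 0.28, and with array weights 0.156.

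Of the U4/U6 proteins, Prpf3 passed the test over both strains. It read 8.07 and 8.0 in F344 hyperoxia on day 6 against 7.78 and 7.73, and 8.14 and 8.17 in SD hyperoxia against 7.83 and 7.90. All 4 hyperoxia arrays were above all 4 room air arrays, by a small step, and the difference over both strains was 0.28 ± 0.08 (SE), adjusted p 0.0417 by limma. This call was lost on leaving out any 1 of 9 arrays: any of the 8 day 6 arrays but F344 hyperoxia replicate 1 (adjusted p 0.0642 to 0.141), or either SD hyperoxia array of day 5 (0.0611). Recentring (0.0601), array weights (0.0827) or only the arrays of the contrast (0.0968) ended it too. Its partner Prpf4 read 8.60 and 7.76 in F344 hyperoxia against 8.79 and 8.75 in room air, a difference of -0.59 that did not pass (adjusted p 0.11) and that lay mostly in replicate 2, and -0.08 in SD. Prpf31, which also joins U4/U6, gave 0.32 in F344 and 0.41 in SD, and 0.37 over both strains (adjusted p 0.0581, limma).

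Sf3a1, a subunit of the U2-bound SF3a complex, fell in F344. It read 7.94 and 7.67 in hyperoxia on day 6 against 8.57 and 8.46 in room air, and in SD 7.89 and 7.93 against 7.91 and 8.19. The F344 groups were apart, while the SD groups overlapped. The difference was -0.71 ± 0.16 (SE; 1.63-fold lower) in F344, adjusted p 0.0438, -0.14 in SD and -0.42 ± 0.11 over both strains, adjusted p 0.0342 (limma). The F344 call was lost without F344 hyperoxia replicate 2 or either room air array of day 6 (adjusted p 0.181 to 0.264) and without any 1 of F344 hyperoxia of day 5 or SD hyperoxia of either day (0.0533 to 0.0702). With the replicate number as a block the F344 adjusted p was 0.0552, with array weights 0.21 and with only the arrays of the contrast 0.28. The call over both strains was lost without F344 hyperoxia replicate 2, either F344 room air array, either SD hyperoxia array or SD room air replicate 2 of day 6 (0.0701 to 0.142), or either SD hyperoxia array of day 5 (0.0509), and with array weights (0.0594) or only the arrays of the contrast (0.0542). Sf3a2, its neighbour in the complex, gave -0.56 in F344 (adjusted p 0.207, limma) and 0.20 in SD, and Sf3a3 0.11 and 0.20.

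**Figure D3:**
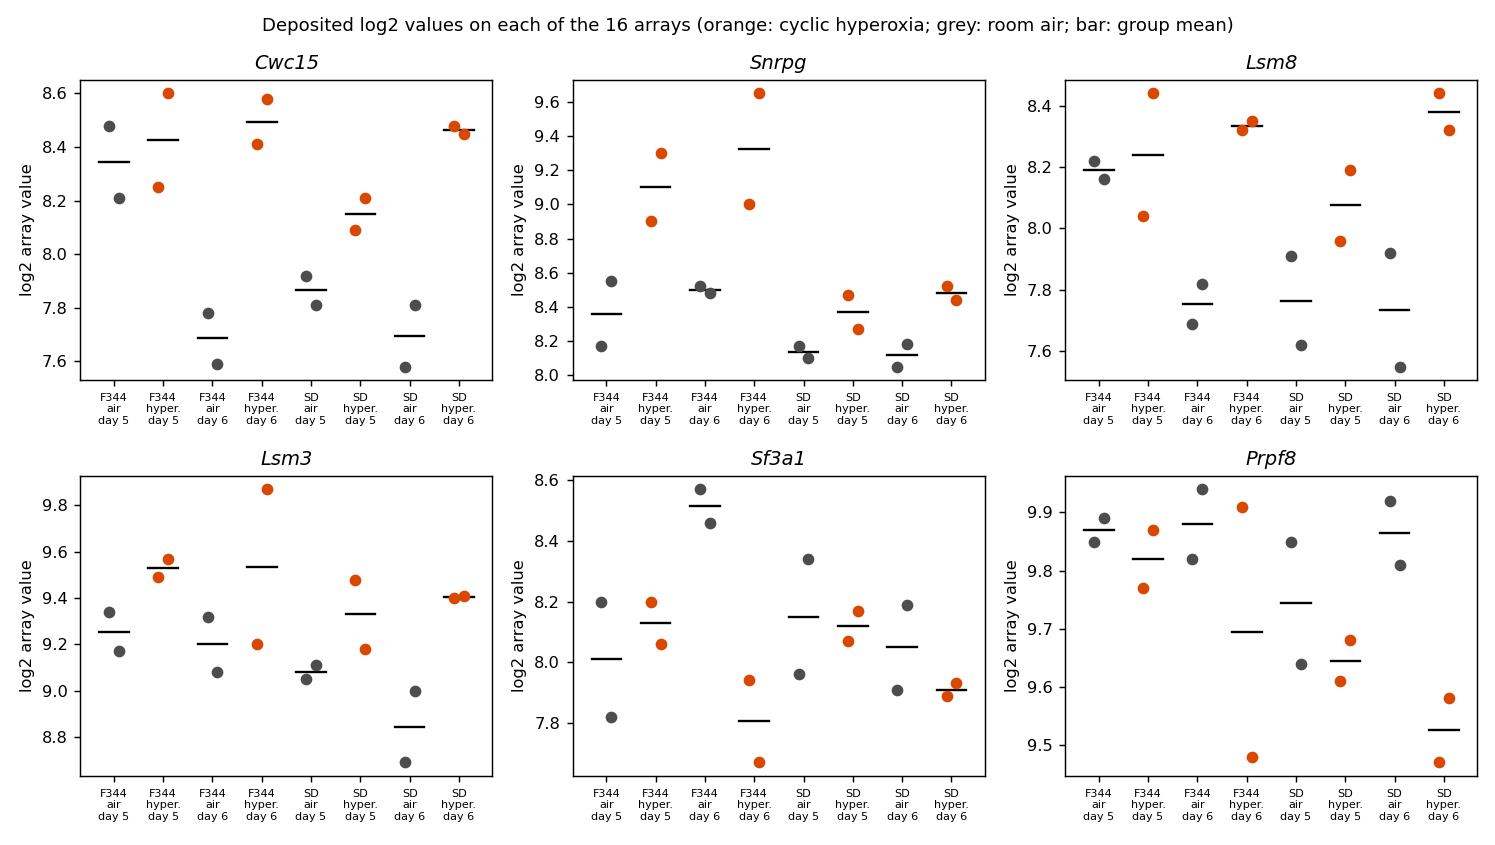
Deposited log2 values of Cwc15, Snrpg, Lsm8, Lsm3, Sf3a1 and Prpf8 on each of the 16 arrays, by strain, exposure and day, with 2 arrays a group and a bar at the group mean. On day 6 the hyperoxia arrays of Cwc15 (8.41 to 8.58) lie above all room air arrays of that day (7.58 to 7.81).

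The 4 large factors with a lower mean in hyperoxia in all 4 pairs did not pass the test. Prpf8, the U5 protein at the centre of the active site, read 9.47 and 9.58 in SD hyperoxia on day 6 against 9.92 and 9.81, and 9.91 and 9.48 in F344 hyperoxia against 9.82 and 9.94. The SD groups were apart and the F344 groups overlapped. The differences were -0.34 (adjusted p 0.183) and -0.18, and -0.26 over both strains (adjusted p 0.107, limma). The kinase gene Prpf4b gave -0.32 in SD and -0.12 in F344, and Sf3b1, the branch site subunit of SF3b, -0.14 and -0.08. Cwc22-ps1 gave -0.06 and -0.11. Sf3b5, the small subunit of the same complex, gave 0.60 in each strain, from 7.93 and 7.78 against 7.11 and 7.40 in F344 and 7.23 and 7.10 against 6.83 and 6.31 in SD. The groups were apart in both strains, and the adjusted p over both was 0.0637 (limma). Prpf19, the ubiquitin ligase of the complex named after it, gave 0.41 in SD (adjusted p 0.153) and 0.07 in F344.

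The 2 probe sets of Prpf18, a factor of the second catalytic step, disagreed. The brighter one, used here, gave 0.09 in F344 and -0.14 in SD on day 6. The other read 8.95 and 9.12 in F344 hyperoxia against 8.27 and 8.39 in room air, and 8.22 and 8.33 in SD hyperoxia against 7.88 and 7.98. Its hyperoxia arrays were higher in both strains, by 0.71 ± 0.14 (SE) in F344 (adjusted p 0.0346), 0.35 in SD (0.193) and 0.53 ± 0.10 over both strains (0.0103, limma with every probe set tested). In room air the brighter set was 0.30 higher in SD than in F344, and the other 0.38 lower (adjusted p 0.0275, limma). The direction given for Prpf18 thus depends on the probe set.

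On day 5, 0 members rose or fell in either strain at an adjusted p under 0.05 (limma), beside 0% of all genes up and 0.126% down in F344, and 0% and 0.0628% in SD. At an unadjusted p under 0.05, 2 rose and 2 fell in F344 (all genes 4.12% and 4.24%), and 6 rose and 1 fell in SD (4.66% and 4.39%). Snrpg gave the smallest adjusted p in F344 (0.226): it read 8.90 and 9.30 in hyperoxia against 8.17 and 8.55, and the groups were apart, by 0.74 on average. In SD, Snrpn, the Sm protein of neural tissue whose gene is imprinted, read 7.49 and 7.31 against 6.84 and 6.93, a difference of 0.51 (adjusted p 0.419, limma). Lsm2, of both LSm rings, was apart in both strains on day 5, at 6.70 and 6.63 against 6.4 and 6.33 in F344 and 6.78 and 6.82 against 6.31 and 6.55 in SD. It gave 0.34 over both strains (adjusted p 0.165, limma). Over both strains on day 5, 0 members passed (all genes 0% up, 0.209% down), and at an unadjusted p under 0.05, 5 members rose, all small proteins, and 1 fell (5.44% and 5.78% of all genes).

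The number of members whose hyperoxia arrays both lay above both room air arrays was largest in SD. It was 7 in F344 (20.5% of all genes) and 19 in SD (24.6%) on day 5, and 12 (20.7%) and 18 (25.3%) on day 6. Of the 20 small proteins, 13 were above in SD on day 5 and 11 on day 6, against 4 and 6 in F344. Of the 23 large factors it was 6 and 7 in SD, and 3 and 6 in F344. Members with both hyperoxia arrays below numbered 5 (20.3% of all genes), 7 (21.5%), 5 (22.0%) and 9 (24.7%) in F344 day 5, SD day 5, F344 day 6 and SD day 6. In both strains the small proteins lay above more often on day 6 than below (6 above and 2 below in F344, 11 and 3 in SD).

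Whether the oxygen effect differed between strains or days was tested directly, and 0 members passed (limma). For the strain difference, 0% of all genes passed in either direction on day 5, and 0.0489% up and 0.00698% down on day 6. At an unadjusted p under 0.05 the members numbered 0 up and 1 down on day 5 (2.99% and 3.14% of all genes), and 3 and 2 on day 6 (8.04% and 3.42%), with Snrpa the smallest adjusted p (SD minus F344 0.53, 0.222). For the day difference, 0.272% and 0.747% of all genes passed in F344, and 0.112% and 0% in SD. There, 3 members were up and 3 down at an unadjusted p under 0.05 in F344 (5.42% and 9.19% of all genes), and 2 and 0 in SD (2.52% and 1.26%). In F344 the effect of Sf3a1 was 0.83 lower on day 6 than on day 5 (a difference of -0.83, adjusted p 0.0843) and that of Cwc15 0.73 higher (adjusted p 0.097, limma). Leaving out F344 hyperoxia replicate 1 of day 6 gave 3 calls for the day difference in F344 and 1 for the strain difference on day 6.

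Between strains in room air, 3 members were higher and 2 lower in SD than in F344 over both days (adjusted p under 0.05, limma), beside 4.02% and 5.33% of all genes. At an unadjusted p under 0.05 they numbered 9 and 5 (10.9% and 12.5% of all genes). Lsm12, an LSm-domain protein outside the rings, read 8.87, 8.33, 8.35 and 8.38 in F344 and 8.96, 9.35, 8.84 and 9.14 in SD. All but 1 F344 array lay below every SD array, and the difference was 0.59 ± 0.12 (SE), adjusted p 0.00578. Snrpa read 7.56, 7.69, 7.61 and 7.63 in F344 and 7.35, 7.28, 7.05 and 7.13 in SD, with no overlap, a difference of -0.42 ± 0.08, adjusted p 0.00667. Both calls were kept whichever array was left out (limma).

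Cwc25, a factor of the first catalytic step, and Cwc27, a cyclophilin-like member of the complex, were higher in SD by 0.40 ± 0.10 (SE; adjusted p 0.0221) and 0.39 ± 0.11 (0.0312). Prpf19 was lower by 0.41 ± 0.11 (a difference of -0.41, adjusted p 0.0245, limma). The groups of all 3 overlapped. The Cwc25 call was lost without F344 replicate 2 or SD replicate 1 of day 5, or F344 or SD replicate 1 of day 6 (adjusted p 0.0791 to 0.106). That of Cwc27 was lost without F344 replicate 2 or either SD array of day 5, or F344 replicate 2 or either SD array of day 6 (0.0559 to 0.15). That of Prpf19 was lost without F344 replicate 2 or SD replicate 2 of day 5, or either F344 array or SD replicate 2 of day 6 (0.0687 to 0.119). With only the arrays of the contrast the Cwc25 call (0.0513) and the Cwc27 call (0.0612) were lost. Sf3b5 gave -0.58 (adjusted p 0.0622), the widest strain difference among those that did not pass. The count of 5 became 11 without F344 room air replicate 1 of day 5 and 2 without its replicate 2, 3 without either F344 room air array of day 6, and 9 without either F344 hyperoxia array of day 6. The class medians were 0.07 for small proteins and -0.03 for large factors, beside 0.01 for all genes. The 7 dividing cell markers were all lower in SD room air, by a median of 0.37 (a difference of -0.37), and Cdk1, Pcna and Rrm2 were called (5 at an unadjusted p under 0.05, limma). Their part in the strain differences was not tested.

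From day 5 to day 6 in room air, 33 of the 43 members had a lower mean and 10 a higher one (45.4% and 54.6% of all genes), and the class medians were -0.11 (small) and -0.08 (large), beside 0.02 for all genes. One member passed, beside 1.29% of all genes up and 1.71% down (limma): Cwc15, at 8.48, 8.21, 7.92 and 7.81 on day 5 against 7.78, 7.59, 7.58 and 7.81 on day 6, fell by 0.41 ± 0.10 (a log2 difference of -0.41, adjusted p 0.0387). At an unadjusted p under 0.05, 0 members rose and 6 fell, all of them large factors, beside 7.60% and 7.62% of all genes. They included Sf3a3 (-0.36, adjusted p 0.066), Prpf3 (-0.27, 0.0765) and Cwc22-ps1 (-0.30, 0.104). The Cwc15 call was lost on leaving out any 1 of 11 arrays: each room air array but F344 replicate 2 of day 5 (adjusted p 0.0534 to 0.189), and each SD hyperoxia array (0.0593 to 0.06). It was lost with quantile normalization (0.0632) or only the arrays of the contrast (0.0756). The count became 6 without that F344 replicate 2 and 0 without any of those 11. These groups also differed in dividing cell genes, of which Ccnb1, Cdk1, Mcm2, Rrm2 and Top2a fell from day 5 to day 6 in room air, by 0.65 to 1.11 log2. Whether that moved the splicing genes was not tested.

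From day 5 to day 6 in hyperoxia, 0 members passed (2.10% of all genes up, 2.70% down, limma), and 1 rose and 6 fell at an unadjusted p under 0.05 (8.84% and 9.47%). The smallest adjusted p was that of Lsm2 (-0.31, 0.0638). Of the 43 members, 29 were lower on day 6 (48.7% of all genes, with 51.3% higher), and the medians were -0.05 for the small proteins and -0.13 for the large factors, beside 0.00 for all genes. Without F344 hyperoxia replicate 1 of day 6 there were 6 calls, and without its replicate 2 there was 1. In hyperoxia Cwc15 read 8.25, 8.60, 8.09 and 8.21 on day 5, and 8.41, 8.58, 8.48 and 8.45 on day 6. The difference between its day changes in hyperoxia and in room air did not pass in either strain (0.73 in F344, adjusted p 0.097, and 0.48 in SD, adjusted p 1, limma). Of the 7 dividing cell markers, 6 fell from day 5 to day 6 in hyperoxia (Ccnb1, Cdk1, Mcm2, Mcm5, Rrm2 and Top2a), and the median of the 7 was -1.11. Its part in the members' day changes was not tested.

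**Figure D4:**
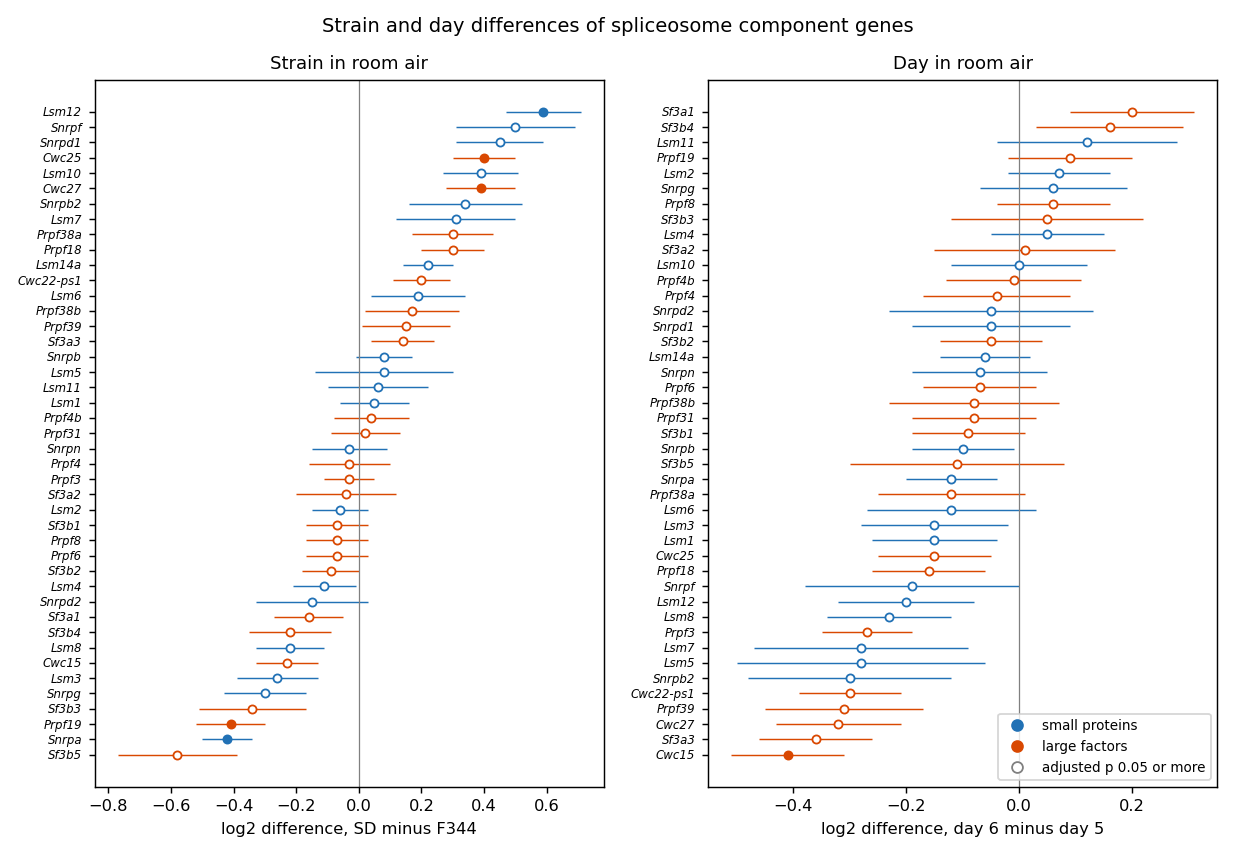
Log2 difference of each member between strains (SD minus F344, left) and days (day 6 minus day 5, right) in room air, with bars of 1 SE, blue for small proteins and orange for large factors, filled where the adjusted p is under 0.05. In the strain panel 5 members are filled, and in the day panel 1, with most members left of 0.

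In other parts of the splicing machinery, few genes passed the test for oxygen on day 6, when 2.23% of all genes rose and 0.565% fell in SD, and 4.01% rose and 2.73% fell over both strains. In F344 the shares were 0.342% and 0.845%. Of 22 further snRNP proteins measured, 0 passed in either strain on day 6. At an unadjusted p under 0.05, 2 rose and 1 fell in F344 (6.83% and 10.8% of all genes), and 5 and 2 in SD (10.3% and 8.54%). Over both strains Snrnp35, of the minor spliceosome, rose by 0.39 (adjusted p 0.0269, limma). In the exon junction complex, which marks spliced mRNA, 2 of 8 measured genes rose in SD on day 6. Sap18 rose by 0.94 ± 0.12 (SE; adjusted p 0.00568) and Rbm8a by 0.79 ± 0.17 (0.0221), and over both strains by 0.61 and 0.72 (limma). Of 18 genes of snRNP assembly and import, Clns1a, which holds Sm proteins before they are loaded on RNA, rose by 0.65 ± 0.14 in SD (adjusted p 0.0221), and over both strains Clns1a (0.47) and the import adaptor Snupn (0.40, adjusted p 0.0439) rose. Of 22 genes of the Prpf19 complex and the catalytic step, Bud31 (0.60, adjusted p 0.0125) and Syf2 (0.46, 0.0399) rose over both strains. None of 8 branch site factors passed for oxygen on day 6 (limma). Over both strains 0 rose and 2 fell at an unadjusted p under 0.05, beside 10.8% and 13.1% of all genes. Unlike the members' calls, those in these other lists, here and below, were not rerun with an array left out or with other processing.

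Between strains in room air, the catalytic step held calls in both directions, beside 4.02% of all genes higher and 5.33% lower. Slu7, a second-step factor, was 0.54 ± 0.07 (SE) higher in SD (adjusted p 0.00036) and Bcas2 0.53 ± 0.09 higher (0.0016), while the helicase genes Dhx16 (-0.58, 0.00114) and Dhx35 (-0.59, 0.0016) were lower (limma). Rbm17, a branch site factor, was 0.50 higher (adjusted p 0.0057). In the exon junction complex Magoh (0.64), Pnn (0.33) and Upf3b (0.40) were higher and Sap18 (-0.56, adjusted p 0.00098) lower. From day 5 to day 6 in room air, Snrnp35 fell by 0.40 (a difference of -0.40, adjusted p 0.0337), and in hyperoxia Rnps1, of the exon junction complex, by 0.37 (-0.37, 0.0341, limma), beside 1.71% and 2.70% of all genes that fell.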

How the data were processed

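RNA of 16 retinal pools was hybridised to Affymetrix arrays of 1 colour. The authors deposited log2 values of 27342 probe sets, normalized with RMA in Partek 6.4 per the submitters' processing notes. RMA narrows differences of dim probe sets, and arrays give no counts, so the number of arrays limits the precision. Of the probe sets, 15097 carried 1 gene symbol, 323 several and 11922 none in the platform table, and 15067 were matched to RefSeq by gene number. The members and lists were chosen with earlier results of these data known. A model of 8 group means was fitted to all 16 arrays with limma 3.58.1 (R 4.3.3, lmFit and eBayes, 8 residual and 7.41 prior degrees of freedom), without a low-value filter, with Benjamini-Hochberg adjustment over 14324 genes and calls under 0.05. Named members were, per comparison, up to 6 called each way, or the 3 smallest p where fewer than 3 were called, plus a fixed set; of its genes Snrpe and Cwc22 are not analysed here. Of the other lists up to 2 called genes each way were to be named; Pnn and Upf3b, and members named for their part in a complex, were added after their values were seen. The script was tested on simulated data. Alternatives were recentring, quantile normalization, a dim gene filter, array weights, every probe set, only the contrast's arrays, each array left out and the replicate number as a block. Calls of single genes outside the members, the cell type markers included, were not followed through these alternatives. Replicate numbers do not pair the arrays by the labels.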

Additional observations from a re-analysis of the deposited data

Results flagged for a closer look

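Several members had oxygen effects of opposite sign in 2 strains or on 2 days, none of which passed the test alone, with no overlap between hyperoxia and room air arrays on either side. limma tested each difference, and none passed. Between strains (SD minus F344) on day 6, Lsm12 gave a difference of -0.51 (0.20 in F344, -0.32 in SD, adjusted p 0.419), and Snrpa 0.53 (-0.11 and 0.41, adjusted p 0.222). Between strains on day 5, Lsm14a gave 0.22 (-0.17 and 0.05, adjusted p 0.872), and Prpf4 0.34 (-0.20 and 0.14, adjusted p 0.874). Between days (day 6 minus day 5) in F344, Lsm2 gave -0.50 (0.30 and -0.20, adjusted p 0.191), and Snrpa -0.36 (0.25 and -0.11, adjusted p 0.35). Between days in SD, Lsm14a gave -0.31 (0.05 and -0.26), Lsm5 0.97 (-0.75 and 0.22) and Prpf4 -0.22 (0.14 and -0.08), each with an adjusted p of 1. Groups of 2 arrays often do not overlap, as the shares of all genes in the report show.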

How the results depend on the processing

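For oxygen, members called in F344 on day 6 went from 3 to 0 with array weights, to 0 with only the arrays of the contrast and to 2 with the replicate block, and in SD on day 6 from 2 to 1 with arrays recentred, with the replicate block and with only the arrays of the contrast. Over both strains on day 6 they went from 6 to 3 with array weights. The strain count in room air went from 5 to 8 with dim genes left out. The day count in room air went from 1 to 0 with quantile normalization or only the arrays of the contrast and to 2 with array weights, and in hyperoxia from 0 to 1 with recentring. Leaving out 1 array gave 0 to 8 (F344 day 6), 0 to 5 (SD day 6), 1 to 13 (both strains, day 6), 2 to 11 (strain), 0 to 6 (each day comparison), 0 to 1 (strain difference, day 6) and 0 to 3 (day difference, F344). The small minus large value gave 0 to 0.32 in F344 and 0.07 to 0.18 in SD on day 5, -0.12 to 0.47 and 0.17 to 0.32 on day 6, -0.20 to 0.09 for the strain difference on day 6, -0.23 to 0.38 for the day difference in F344 and -0.08 to 0.13 for the day change in hyperoxia, so single arrays turned its sign in F344 on day 6 and in these differences. With Sm and LSm ring proteins against the rest, added after the data were seen, the strain difference on day 6 was 0.19. The cause of these moves was not tested. The block ended the calls of Sf3a1 (F344), Lsm8 (SD) and Lsm3 (both strains), and changed no other count by over 1.5 times. Same-numbered arrays share only a number: over 28 pairs of groups their deviations correlated at -0.29 to 0.52, median -0.02. Classes by protein length were not run.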

Other observations

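Most neural splicing regulators had a lower mean in hyperoxia on day 6. Of 21 neural splicing regulators measured, 18 were lower in hyperoxia in F344 (50.9% of all genes) and 19 in SD (51.3%), with median log2 differences of -0.19 and -0.11, beside 0.00 and -0.01 for all genes. None passed the test in either strain or over both strains (limma, adjusted p under 0.05), and at an unadjusted p under 0.05, 0 rose and 7 fell in F344 (6.83% and 10.8% of all genes), 1 and 5 in SD (10.3% and 8.54%), and 0 and 10 over both strains (10.8% and 13.1%). The counts were not tested. On day 5 the medians were -0.07 and -0.05.

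Among 20 measured hnRNP genes, Ptbp1, a repressor of neural exons, fell over both strains on day 6 by 0.42 (a difference of -0.42, adjusted p 0.0277, limma), with no overlap of arrays, and Hnrnpul1 by 0.32 (-0.32, adjusted p 0.0386). Ptbp1 also fell from day 5 to day 6 in hyperoxia by 0.56 (-0.56, adjusted p 0.00429). Of 20 SR proteins and their kinases, Tra2a rose over both strains on day 6 by 0.31 (adjusted p 0.0367). Between strains in room air, Hnrnpa2b1 and Hnrnpa3 were each 0.40 higher in SD (adjusted p 0.0126 and 0.0127), and the neural regulators Khdrbs2 (0.40, adjusted p 0.0136) and Celf4 (0.33, 0.0256) were higher and Elavl3 (-0.40, 0.0209) lower. These calls were not rerun with an array left out or with other processing.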
